A study of Mus musculus with 14 samples.

Results

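Genes of the 2-cell-like state are transcribed at high level in the mouse embryo at the 2-cell stage and again, for a short time, in rare cells of embryonic stem cell cultures. A set of 10 such genes was followed here by symbol: 3 Zscan4 copies (Zscan4c, Zscan4d and Zscan4f), Zfp352, Tcstv1, Tcstv3, Tmem92, Arg2, Sp110 and Calcoco2. All 10 were found, among 24345 gene symbols with FPKM values and 24394 with read counts. The near-identical copies, Zscan4a and Zscan4b, were in the same tables too, and the sum of all 5 copies is given beside the single copies.

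The study holds 14 mouse libraries in 7 groups of 2. RNA-seq was made of stem cells in which Dppa5a was knocked down (Dppa5a_KD), of control stem cells labelled wild type (KD_control), of wild-type stem cells (mESC) and of primary wild-type embryonic fibroblasts (MEF), all untreated. RNA immunoprecipitation (RIP), in which RNA bound to a protein is pulled down with an antibody and sequenced, used stem cells that overexpress 3Flag-Dppa5a. Its groups were cells given the treatment HU and pulled down with a Flag antibody (HU_Flag_RIP), untreated cells with the same antibody (Flag_RIP), and untreated cells with IgG (IgG_RIP). Dppa5a, made in pluripotent cells, binds RNA through a KH domain. The labels call every stem cell line home made, do not spell out HU, and do not say how the knockdown was made, whether a line is 1 clone, or whether the 2 libraries of a group came from separate cultures. The p-values therefore measure the spread between libraries, which may be technical. The stem cells were grown on inactivated fibroblast feeders and moved to gelatin before harvest, per the labels' protocols, so feeder RNA can be present. The series was made to study splicing and the target RNAs of Dppa5a, and the levels of the 10 genes were read from the same tables.

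Zscan4 proteins carry a SCAN domain and zinc fingers, and in mouse stem cells they are known for a role in telomere upkeep and genome stability. Zfp352 encodes a zinc finger protein of the early embryo. Tcstv1 and Tcstv3 belong to a gene family named for its variable expression at the 2-cell stage. Tmem92 encodes a transmembrane protein, Arg2 the mitochondrial arginase, Sp110 a nuclear body protein related to Sp100 and induced by interferon, and Calcoco2 a selective autophagy receptor. The state passes through stem cell cultures in single cells, so in bulk RNA a lower value can mean fewer cells in the state or less RNA per cell, and these cannot be told apart.

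The 5 Zscan4 copies lie on chromosome 7 of mm10, between 10794241 and 11402318, a stretch of 608.1 kb. Zscan4c spans 11005745 to 11010547, Zscan4d 11161643 to 11166148 and Zscan4f 11397915 to 11402318. Zfp352 lies on chromosome 4 (90218820 to 90225687) and Sp110 on chromosome 1 (85576899 to 85603891). Tcstv1 (119893387 to 119894785) and Tcstv3 (120316862 to 120318261) are both on chromosome 13, and Tmem92 (94777217 to 94782703) and Calcoco2 (96098916 to 96111962) both on chromosome 11. Arg2 lies on chromosome 12 (79130788 to 79156301). These are the spans of whole genes in the deposited tables.

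A promoter sequence was on hand for 5 of the 10 genes. The sequences of the Zscan4 transcripts, which bear on every value of a single copy, were not compared. The promoters are shown because those of the Zscan4 copies are nearly identical and those of Zfp352 and Sp110 share a short motif. Each is the 250 bases before the RefSeq start (GRCm38.p6, the assembly also called mm10), 5′ to 3′ on the strand of the gene, at chr7:11005495-11005744 (plus) for Zscan4c, chr7:11166149-11166398 (minus) for Zscan4d, chr7:11397665-11397914 (plus) for Zscan4f, chr4:90218570-90218819 (plus) for Zfp352 and chr1:85603892-85604141 (minus) for Sp110. Capitals mark TATAA and TAATCC, the latter written GGATTA where it lies on the other strand.
Zscan4c: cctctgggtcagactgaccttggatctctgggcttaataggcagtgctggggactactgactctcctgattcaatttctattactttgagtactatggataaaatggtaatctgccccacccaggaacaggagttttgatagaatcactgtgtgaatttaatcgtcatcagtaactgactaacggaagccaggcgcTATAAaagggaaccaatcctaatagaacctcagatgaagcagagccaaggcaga
Zscan4d: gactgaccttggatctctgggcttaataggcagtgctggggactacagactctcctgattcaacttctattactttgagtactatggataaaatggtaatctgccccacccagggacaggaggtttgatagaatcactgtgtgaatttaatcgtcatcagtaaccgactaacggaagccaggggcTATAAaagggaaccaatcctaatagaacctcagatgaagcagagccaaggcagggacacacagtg
Zscan4f: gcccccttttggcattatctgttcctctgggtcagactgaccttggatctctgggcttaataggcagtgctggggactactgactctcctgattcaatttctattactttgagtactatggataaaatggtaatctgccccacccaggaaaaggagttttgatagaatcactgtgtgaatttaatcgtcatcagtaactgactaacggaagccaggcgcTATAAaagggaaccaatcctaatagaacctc
Zfp352: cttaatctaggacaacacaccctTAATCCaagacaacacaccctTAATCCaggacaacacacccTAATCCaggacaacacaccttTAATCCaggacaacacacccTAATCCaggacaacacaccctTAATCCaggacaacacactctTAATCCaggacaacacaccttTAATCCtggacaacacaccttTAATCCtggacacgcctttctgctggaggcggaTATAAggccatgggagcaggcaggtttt
Sp110: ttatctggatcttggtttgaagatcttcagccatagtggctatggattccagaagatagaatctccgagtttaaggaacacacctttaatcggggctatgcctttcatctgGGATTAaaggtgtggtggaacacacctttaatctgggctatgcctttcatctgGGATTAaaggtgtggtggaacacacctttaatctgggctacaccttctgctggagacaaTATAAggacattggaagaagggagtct

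Over the bases that align, the Zscan4c and Zscan4f promoters were 99.6% identical (227 bases), Zscan4c and Zscan4d 97.1% (239 bases) and Zscan4d and Zscan4f 96.8% (216 bases). Each of the 5 promoters shown held 1 TATAA. It began 54 bases before the start in Zscan4c, 65 in Zscan4d, 31 in Zscan4f, 28 in Zfp352 and 27 in Sp110. At least 1 TATAA on either strand was found in 22.8% of 32851 mouse promoters of the same length. TAATCC, chosen after these sequences were seen, occurred 9 times in Zfp352, between 227 and 61 bases before the start, and 2 times in Sp110, on the opposite strand, at 139 and 86 bases. Of all promoters, 6.25% held it at least once, 0.295% (97 promoters) at least 2 times and 0.00304% (1 promoter, that of Zfp352) at least 9 times. The 3 Zscan4 promoters held no TAATCC in this window. Sp110 has another RefSeq start, whose window (chr1:85598811-85599060, minus) held no TATAA and 1 TAATCC, at 165 bases. The Sp110 window shown lies at the start of its deposited span, and its motif counts hold for that start only.

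FPKM, the deposited unit of the RNA-seq tables, scales fragments to transcript length and library size, so levels can be compared between genes. In the stem cells Calcoco2 and Zscan4 were the abundant members, and the other 6 genes stood at or below 2.36 FPKM in every library. Fibroblasts had 0 FPKM listed for 8 of the 10 genes in both libraries; Arg2 was at 0 and 0.0791 FPKM there, and Sp110 at 0.193 and 0.219 FPKM. Defining markers fitted the cell labels: 18 pluripotency genes summed to 3801 to 4769 FPKM in Dppa5a_KD, 4184 to 4215 in KD_control, 2712 to 3784 in mESC and 48.3 to 67.7 in MEF. The sums of 19 fibroblast genes were 145 to 177 FPKM in Dppa5a_KD, 218 to 219 in KD_control, 85.0 to 93.6 in mESC and 11720 to 12710 in MEF.

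**Figure D1:**
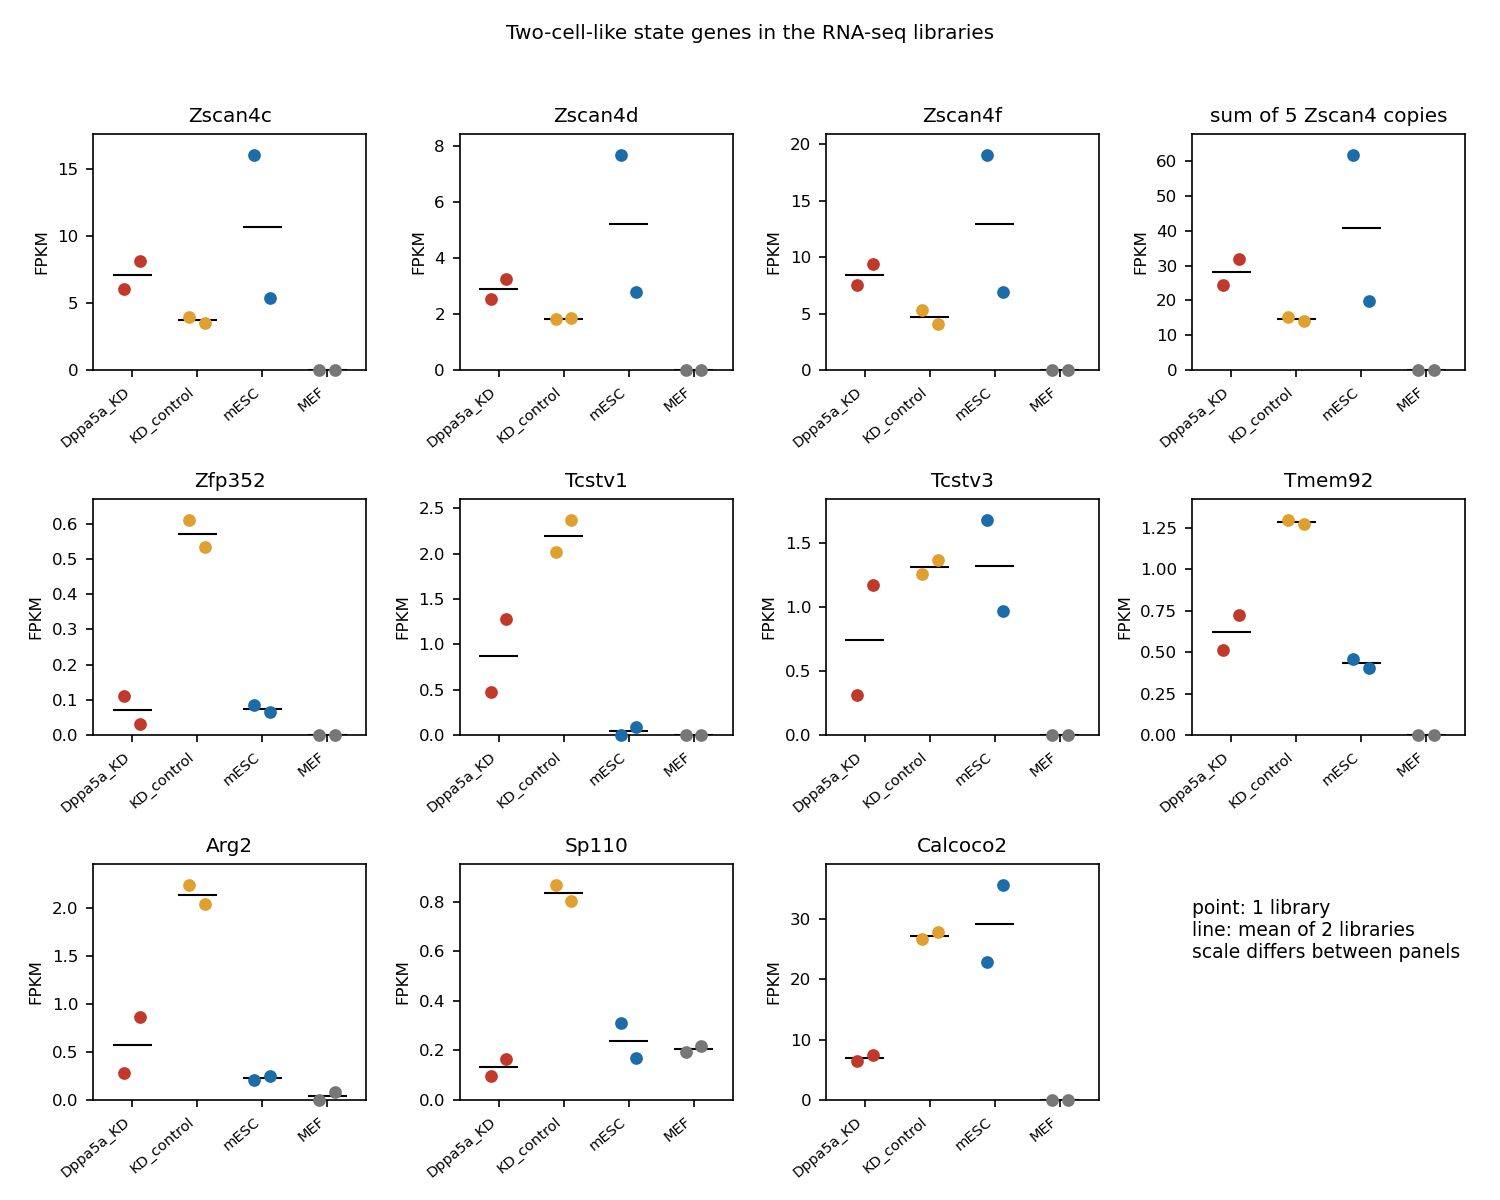
FPKM of the 10 genes and of the sum of 5 Zscan4 copies in each RNA-seq library, 1 panel a gene with its own linear axis; points are libraries and lines are group means. The MEF libraries lie at or near 0 in every panel but that of Sp110 (0.193 and 0.219 FPKM), the KD_control libraries are highest for Tcstv1, Tmem92, Arg2, Sp110 and Zfp352, and the mESC libraries spread most for Zscan4.

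The Zscan4 sum was 24.5 and 31.7 FPKM in Dppa5a_KD, 15.3 and 14.2 FPKM in KD_control, 61.6 and 19.8 FPKM in mESC. Both MEF libraries list it at 0. In order of group means mESC came first (40.7 ± 29.6 FPKM, SD, n = 2), then Dppa5a_KD (28.1 ± 5.12) and KD_control (14.7 ± 0.740), but the mESC libraries differed 3.12-fold and enclose the Dppa5a_KD values. Zscan4f took the largest share of the sum in every stem cell library (28.4% to 35.0%), followed by Zscan4c (24.6% to 27.2%), while Zscan4b held 12.0% to 23.0%, Zscan4d 10.2% to 14.2% and Zscan4a 8.87% to 12.3%. The sources used here do not say how fragments that match several copies were assigned, so the split among copies is uncertain and the sum is the firmer value.

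**Figure D2:**
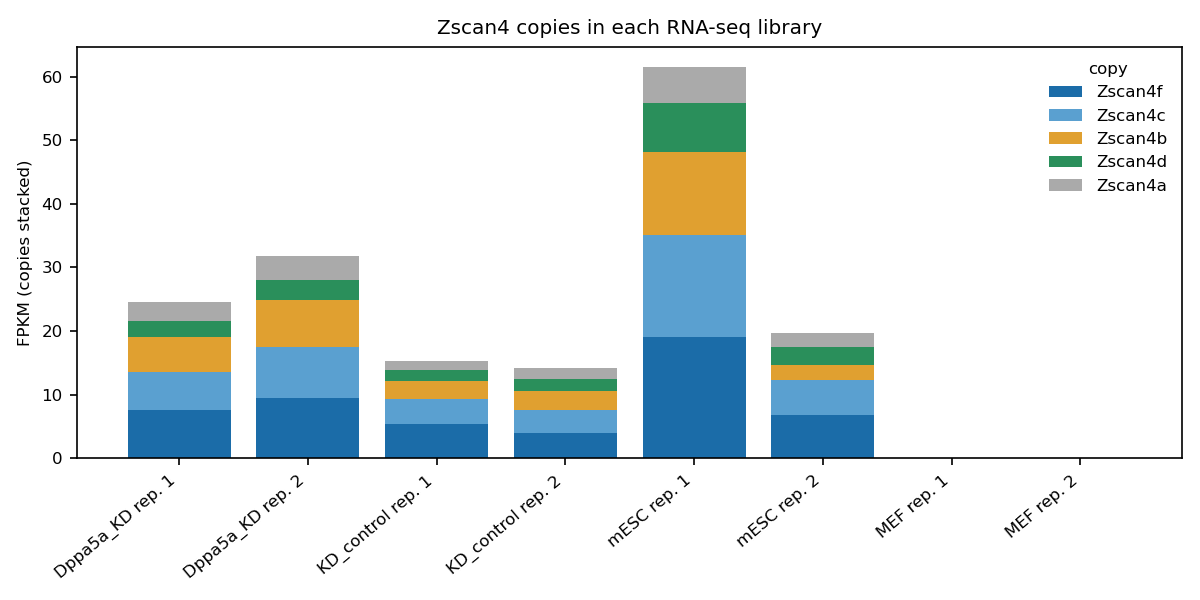
Stacked FPKM of the 5 Zscan4 copies in each RNA-seq library, with libraries on the horizontal axis and 1 colour a copy. Zscan4f and Zscan4c make up the larger part of each stem cell bar, the first mESC library is the tallest at 61.6 FPKM, and MEF has no bar.

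Calcoco2 was the most abundant member outside the Zscan4 copies, with 6.37 and 7.50 FPKM in Dppa5a_KD, 26.6 and 27.8 in KD_control, and 22.8 and 35.5 in mESC. Arg2 had 0.277 and 0.862 FPKM in Dppa5a_KD, 2.23 and 2.03 in KD_control, and 0.209 and 0.248 in mESC. Tmem92 had 0.514 and 0.725 FPKM in Dppa5a_KD, 1.29 and 1.27 in KD_control, and 0.461 and 0.406 in mESC. These 3 genes were lower in both knockdown libraries than in either control library, and so were Tcstv1, Tcstv3, Zfp352 and Sp110. The share of all genes that separate in this way was not computed, so the separation supports nothing beyond these levels.

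Tcstv1 had 0.473 and 1.27 FPKM in Dppa5a_KD and 2.02 and 2.36 in KD_control; in mESC it was listed at 0 in 1 library and at 0.0869 in the other. Tcstv3 is of the same family, so reads may be shared between the genes, but its values differed, with 0.314 and 1.17 FPKM in Dppa5a_KD, 1.26 and 1.36 in KD_control, and 1.68 and 0.970 in mESC. Of the Tcstv genes only Tcstv3 was near equal in KD_control and mESC. Zfp352 stood at 0.112 and 0.0310 FPKM in Dppa5a_KD, 0.609 and 0.533 in KD_control, and 0.0853 and 0.0644 in mESC. Sp110 stood at 0.0966 and 0.167 FPKM in Dppa5a_KD, 0.866 and 0.804 in KD_control, and 0.311 and 0.169 in mESC. For both of the last genes KD_control lay above every other library, and the share of all genes that do so was not computed.

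Depth limits the low genes. The width of the deposited confidence bounds corresponds to 2 to 46 fragments per stem cell library for Zfp352 and 4 to 51 for Sp110. The numbers were 6 to 33 for Tcstv3, 0 to 56.1 for Tcstv1, 6.1 to 91.5 for Arg2 and 23 to 88 for Tmem92. They were 349 to 2428 for Calcoco2 and 929 to 3058 for the Zscan4 sum. Arg2 rested on 9.1 fragments in Dppa5a_KD replicate 1, and Tcstv1 on 0 and 2.0 in the mESC libraries.

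The first comparison asks how the genes differ in stem cells with less Dppa5a. Dppa5a itself was at 101 and 358 FPKM in Dppa5a_KD, against 5126 and 5417 FPKM in KD_control (log2 fold change -4.78, SE 0.63, limma adjusted p = 0.00878), so the knockdown libraries matched their label and differed 3.54-fold from each other. The members moved in opposite directions: Calcoco2, Arg2 and Tmem92 fell in Dppa5a_KD, whereas Zscan4c and Zscan4f rose. Of the 10, 8 reached a group mean of 1 FPKM and were tested with limma on log2(FPKM + 1), a scale that understates the change of low genes. With a Benjamini-Hochberg adjusted p under 0.05, 5 of the 8 were called, 2 higher and 3 lower. Of 12345 genes tested, 37.4% were called, 13.6% higher and 23.8% lower, so the members' count is not far above the background. Arg2, Tmem92, Tcstv1 and Tcstv3 reached 1 FPKM in KD_control alone and so entered the test where they could hardly be other than lower; the count of lower members supports nothing beyond their levels. Calcoco2 and the 3 Zscan4 copies passed the filter in both groups.

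Calcoco2 had the smallest p of the members, with a log2 fold change of -1.83 (SE 0.12, limma adjusted p = 0.00601) and a ratio of FPKM means of 0.255. Arg2 had a log2 fold change of -1.02 (SE 0.20, limma adjusted p = 0.0206), with its 2 knockdown libraries 3.11-fold apart and a ratio of FPKM means of 0.267. Both calls remained without any 1 library. Tmem92 had a log2 fold change of -0.50 (SE 0.12, limma adjusted p = 0.0296). This call ended without KD_control replicate 1 (log2 fold change -0.49) or replicate 2 (-0.50). With every library scaled to a common sum, the Tmem92 call ended as well (adjusted p = 0.0555), and Tcstv1 (0.0469) and Zscan4d (0.0492) passed the threshold. Tcstv1 was not called (log2 fold change -0.80, SE 0.23, limma adjusted p = 0.0515), nor was Tcstv3 (-0.45, SE 0.25, 0.217). Leaving out any 1 library brought Tcstv1 under the threshold, with an adjusted p between 0.000271 and 0.0163. Tcstv3 passed it only without Dppa5a_KD replicate 2 (0.00145), the library in which it was close to its controls.

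Zscan4c was 1.89-fold and Zscan4f 1.80-fold higher in Dppa5a_KD by FPKM means. Their log2 fold changes were 0.76 (SE 0.16, limma adjusted p = 0.0247) and 0.74 (SE 0.17, adjusted p = 0.0307). Zscan4d was not called (0.45, SE 0.13, limma adjusted p = 0.0503). The sum of the 5 copies, fitted in place of the single copies, had a log2 fold change of 0.88 (SE 0.15, limma adjusted p = 0.0152). Its libraries did not overlap between the groups, but the share of all genes that separate in this way was not computed. Without KD_control replicate 2 Zscan4c (adjusted p = 0.0938) and Zscan4f (0.199) lost their calls, and with all 8 RNA-seq libraries in 1 fit, where the mESC spread enters, Zscan4c (0.201), Zscan4f (0.199) and the sum (0.182) did too.

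Zfp352 and Sp110 did not reach the filter on low values. Without that filter, a setting that also ended the calls of Zscan4c (adjusted p = 0.0519) and Zscan4f (0.0614), Sp110 fell with a log2 fold change of -0.70 (SE 0.05, limma adjusted p = 0.016) and Zfp352 with -0.55 (SE 0.06, limma adjusted p = 0.0165). Their ratios of FPKM means were 0.158 and 0.125. All 7 members that are not Zscan4 copies had lower means in Dppa5a_KD, but only Calcoco2, Arg2 and Tmem92 did so past the threshold with the filter in place. Of these 7 genes only Calcoco2 reached a mean of 1 FPKM in both groups. The share of all genes with a lower mean was not computed, so the shared direction supports nothing beyond the genes' levels.

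**Figure D3:**
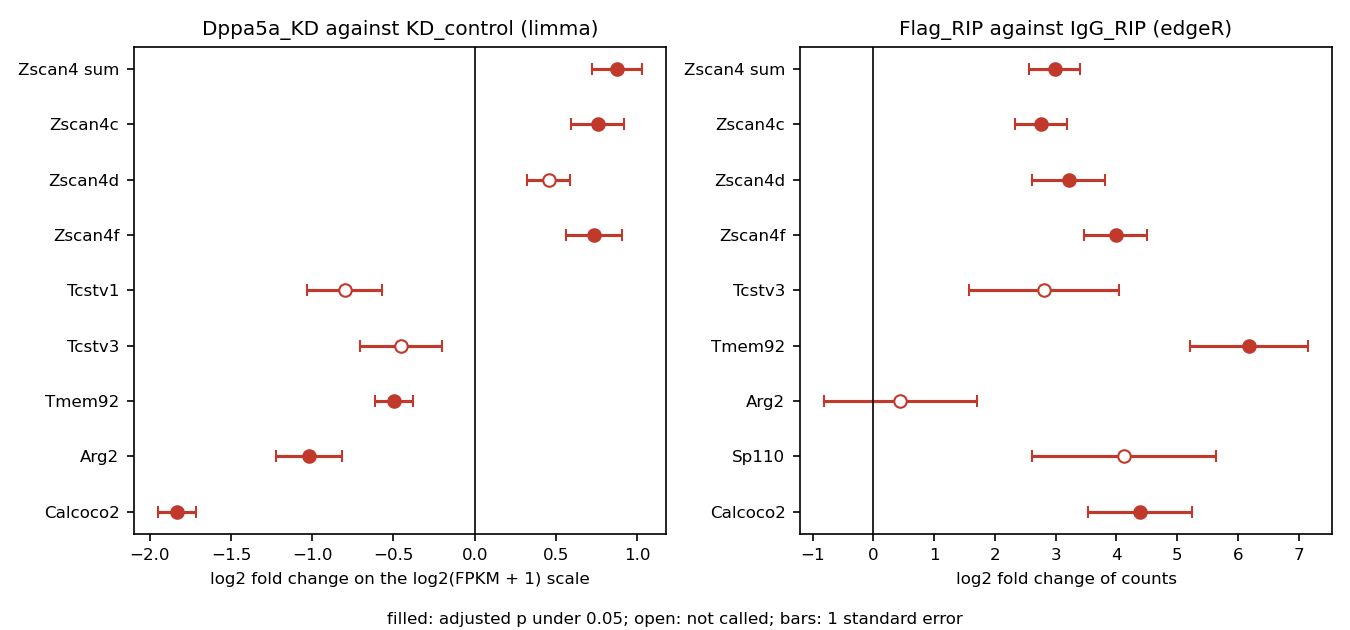
Log2 fold changes of the members: Dppa5a_KD against KD_control (limma, log2(FPKM + 1) scale) and Flag_RIP against IgG_RIP (edgeR, count scale); bars are 1 SE and filled points have an adjusted p under 0.05. In the knockdown the Zscan4 copies lie right of 0 and the other genes left of it, whereas in the RIP every fitted member lies right of 0.

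Other genes known from the 2-cell stage were more often lower than higher. Of 49 such genes listed, 42 were in the FPKM table and 18 were tested; 9 were lower and 2 higher in Dppa5a_KD, with a median log2 fold change of -0.83, against -0.47 for the tested members and -0.11 for all genes tested. Of all genes tested, 13.6% were higher and 23.8% lower. Genes that reached the filter through KD_control alone push such a median down and the count of lower genes up. Gm4340 had 1.46 and 1.38 FPKM in Dppa5a_KD, against 10.7 and 7.24 in KD_control (log2 fold change -2.02, limma adjusted p = 0.00622). Gm8300 had 1.32 and 1.31 FPKM in Dppa5a_KD, against 4.04 and 3.81 in KD_control (-1.09, limma adjusted p = 0.00622). BB287469 had 2.17 and 2.20 FPKM in Dppa5a_KD, against 5.74 and 6.80 in KD_control (-1.19, limma adjusted p = 0.00627). The other Zscan4 copies tested went with their family: Zscan4a had a log2 fold change of 0.74 (limma adjusted p = 0.022) and Zscan4b one of 0.91 (0.0139).

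Genes known to switch the state on or hold it off were mostly not called, where 13.6% of all genes tested were higher and 23.8% lower. Of 10 activators tested 2 were higher and none lower, among them Dppa2, a chromatin protein that acts upstream of Dux, with 106 and 114 FPKM in Dppa5a_KD, against 65.3 and 62.0 in KD_control (log2 fold change 0.78, limma adjusted p = 0.0102). Of 36 repressors 8 were higher and none lower; Ncl, which encodes nucleolin, had 187 and 137 FPKM in Dppa5a_KD, against 65.4 and 68.1 in KD_control (1.25, limma adjusted p = 0.0107).

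Sp110 and Calcoco2 also belong to wider families. The background for the counts that follow is again 13.6% of all genes tested higher and 23.8% lower. Among 14 interferon-stimulated genes tested 5 were higher and 5 lower in Dppa5a_KD. Ddx58, which encodes an RNA sensor, had 4.50 and 4.57 FPKM in Dppa5a_KD, against 0.922 and 1.04 in KD_control, and Stat2, a transcription factor of the pathway, had 8.66 and 8.46 FPKM against 15.9 and 16.1. Among 9 other autophagy receptors 4 were lower and 1 was higher. Bnip3, a mitophagy receptor, had 90.8 and 95.3 FPKM in Dppa5a_KD, against 291 and 288 in KD_control, while Tax1bp1, a paralog of Calcoco2, had 45.0 and 30.8 FPKM against 17.6 and 18.9. Of 9 other arginine and polyamine enzymes 3 were higher and 2 lower. Of 19 fibroblast markers listed, 6 reached the filter, of which 4 were lower in Dppa5a_KD and 2 were not called. Among the markers below the filter, Col3a1, Postn, Lum, Dcn and Prrx1 were at 0 in both Dppa5a_KD libraries. In KD_control those 5 stood at or below 0.0286 FPKM. Primitive endoderm markers moved in the same comparison, with 3 of 5 tested lower and 1 higher. Their sums over 8 genes were 24.7 to 32.5 FPKM in Dppa5a_KD, against 35.8 to 37.4 in KD_control. Of the trophectoderm markers 3 of 5 tested were lower and 1 higher, with sums over 8 genes of 36.6 to 39.1 FPKM in Dppa5a_KD, against 59.0 to 61.7 in KD_control. The part of these cell types in the members' values was not tested. The members themselves stood at 0 to 0.219 FPKM in MEF.

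The comparison of stem cells with fibroblasts asks where the genes are expressed at all. In mESC 5 members had a mean of at least 1 FPKM, and all 5 were called higher than in MEF: Calcoco2 (limma adjusted p = 0.000139), Zscan4f (0.0017), Zscan4c (0.0025), Zscan4d (0.00397) and Tcstv3 (0.00455). They passed the filter through mESC alone, being listed at 0 in MEF, so their count supports nothing beyond these levels. The background was 56.7% of 12875 genes called, 30.6% higher. The sum of the Zscan4 copies was also called (limma adjusted p = 0.00088). Without MEF replicate 1 only Calcoco2 and the Zscan4 sum kept their calls (Zscan4c 0.0638, Zscan4d 0.0762, Zscan4f 0.0527, Tcstv3 0.0569), and likewise without MEF replicate 2 (0.0617, 0.0743, 0.0504 and 0.0537). The mESC values of the remaining 5 genes lay at or under 0.461 FPKM in both libraries, and for Sp110, at 0.311 and 0.169 FPKM in mESC against 0.193 and 0.219 in MEF, the groups overlap.

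In KD_control 8 members passed the filter, again through the stem cells alone, and all 8 were higher than in MEF, with limma adjusted p between 8.4e-06 for Calcoco2 and 8.8e-05 for Tcstv3; 80.9% of 13365 genes were called, 48.4% higher. Leaving out any 1 library ended none of these 8 calls. Among the other genes of the 2-cell stage, 16 of 16 tested were higher in mESC and 17 of 17 in KD_control. They too reached the filter through the stem cells alone and could hardly be other than higher. These counts therefore support nothing beyond the genes' levels.

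KD_control and mESC are both labelled wild type and untreated, and their direct comparison asks how far the genes vary between stem cell cultures of the series. Tcstv1, Arg2 and Tmem92 were higher in KD_control, and no member was called lower. Of 8 members tested 3 were called, against a background of 41.4% of 12595 genes, 26.5% higher and 15.0% lower. The 3 called members reached 1 FPKM in KD_control alone, so their direction was set by the filter and their count supports nothing beyond their levels. Tcstv1 had a log2 fold change of 1.61 (SE 0.13, limma adjusted p = 0.00722), Arg2 one of 1.35 (SE 0.12, 0.00753) and Tmem92 one of 0.67 (SE 0.11, 0.0174). The Tmem92 call ended without KD_control replicate 1 or 2 (adjusted p = 0.129 and 0.117). By FPKM means Arg2 was 9.32-fold and Tmem92 2.95-fold higher. Without the filter on low values Zfp352 (0.55, SE 0.05, limma adjusted p = 0.0143) and Sp110 (0.57, SE 0.08, 0.0234) were higher as well.

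The Zscan4 copies pointed the other way, without a call when both libraries of each group were fitted. Their sum had a log2 fold change of -1.20 (SE 0.56, limma adjusted p = 0.152), and Zscan4c (-1.14), Zscan4d (-1.02) and Zscan4f (-1.15) had adjusted p between 0.122 and 0.137; all 4 values rest on mESC libraries that differ about as much from each other as the groups do. Without mESC replicate 1 the sum's log2 fold change was -0.40 (limma adjusted p = 0.00326), and without mESC replicate 2 it was -1.99 (4.5e-06), so it was called lower in KD_control against either mESC library alone, but with a lone library's spread taken from the other group. Zscan4c, Zscan4d and Zscan4f were called lower in the same fits, and also with all 8 RNA-seq libraries in 1 fit (limma adjusted p = 0.0432, 0.0347 and 0.0366). Calcoco2 (-0.06, SE 0.25) and Tcstv3 (0.01, SE 0.19) were near 0. Calcoco2 was called in opposite directions without mESC replicate 1 (-0.37, limma adjusted p = 0.00176) and without mESC replicate 2 (0.25, 0.00609).

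These 2 stem cell groups differ in more than the members. The Y-linked gene Eif2s3y, chosen after its values were seen, was listed at 0 in all 4 Dppa5a_KD and KD_control libraries and stood at 43.2 and 41.2 FPKM in mESC. Dppa5a was 3.19-fold higher in KD_control by FPKM means (5126 and 5417 FPKM, against 1485 and 1818 in mESC). Whether the lines have 1 origin is not stated, and the part of the line in these differences was not tested. The comparisons with KD_control share its 2 libraries, so the high KD_control values of Tcstv1, Arg2, Tmem92, Zfp352 and Sp110 enter both the comparison with Dppa5a_KD and that with mESC.

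The RIP asks which RNAs were recovered with Flag-tagged Dppa5a. Of its counts, 39.3% to 73.2% came from the ribosomal RNA precursor Rn45s, on totals between 3472020 and 13033886, and without the 10 most abundant genes 677710 to 1451706 counts per library remained. Counts were scaled with TMM factors of 0.782 and 0.827 in HU_Flag_RIP, 0.790 and 0.846 in Flag_RIP, and 1.45 and 1.60 in IgG_RIP; CPM values are counts relative to the scaled library size. Dppa5a RNA itself had 857 and 697 counts in HU_Flag_RIP, 1744 and 1282 in Flag_RIP, and 1163 and 1491 in IgG_RIP. There is no input library here, so a value reports recovery against IgG and not against the level in the cell.

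Zscan4 RNA was recovered with the Flag antibody. The 5 copies together had 385 and 980 counts in HU_Flag_RIP, 1025 and 1252 in Flag_RIP, and 71 and 107 in IgG_RIP. As CPM the sum was 51.2 and 161 in HU_Flag_RIP, 99.7 and 157 in Flag_RIP, and 14.1 and 18.1 in IgG_RIP. Every Flag library, HU or not, lay above both IgG libraries, and the HU libraries differed 3.15-fold. Zscan4f had 81 and 187 counts in HU_Flag_RIP, 300 and 301 in Flag_RIP, and 8 and 15 in IgG_RIP. Zscan4c had 106 and 153 counts in HU_Flag_RIP, 207 and 186 in Flag_RIP, and 15 and 20 in IgG_RIP. Zscan4d had 58 and 212 counts in HU_Flag_RIP, 155 and 234 in Flag_RIP, and 10 and 16 in IgG_RIP. The counts of single copies shift among them: Zscan4b took 22.3% to 38.0% of the sum and Zscan4f 11.3% to 29.3%.

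Tmem92 and Calcoco2 RNA gave at most 2 counts in an IgG library. Tmem92 had 32 and 23 counts in HU_Flag_RIP, 98 and 51 in Flag_RIP, and 1 and 0 in IgG_RIP. Calcoco2 had 26 and 26 counts in HU_Flag_RIP, 82 and 33 in Flag_RIP, and 1 and 2 in IgG_RIP. The low members gave few counts: Sp110 had 9 and 10 in HU_Flag_RIP, 25 and 11 in Flag_RIP, and 1 and 0 in IgG_RIP, and Tcstv3 had 13 and 16, 19 and 17, and 0 and 3 in the same groups. Tcstv1 had 11 and 8 counts in HU_Flag_RIP, 14 and 4 in Flag_RIP, and none in IgG_RIP. Zfp352 had 3 and 4 counts in HU_Flag_RIP, 10 and 11 in Flag_RIP, and none in IgG_RIP. Arg2 did not separate the groups, with 10 and 15 counts in HU_Flag_RIP, 13 and 7 in Flag_RIP, and 0 and 9 in IgG_RIP. For the other low members the gap from IgG_RIP is a few counts at unequal depth. The share of all genes that separate in this way was not computed, so the separation supports nothing beyond these counts.

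**Figure D4:**
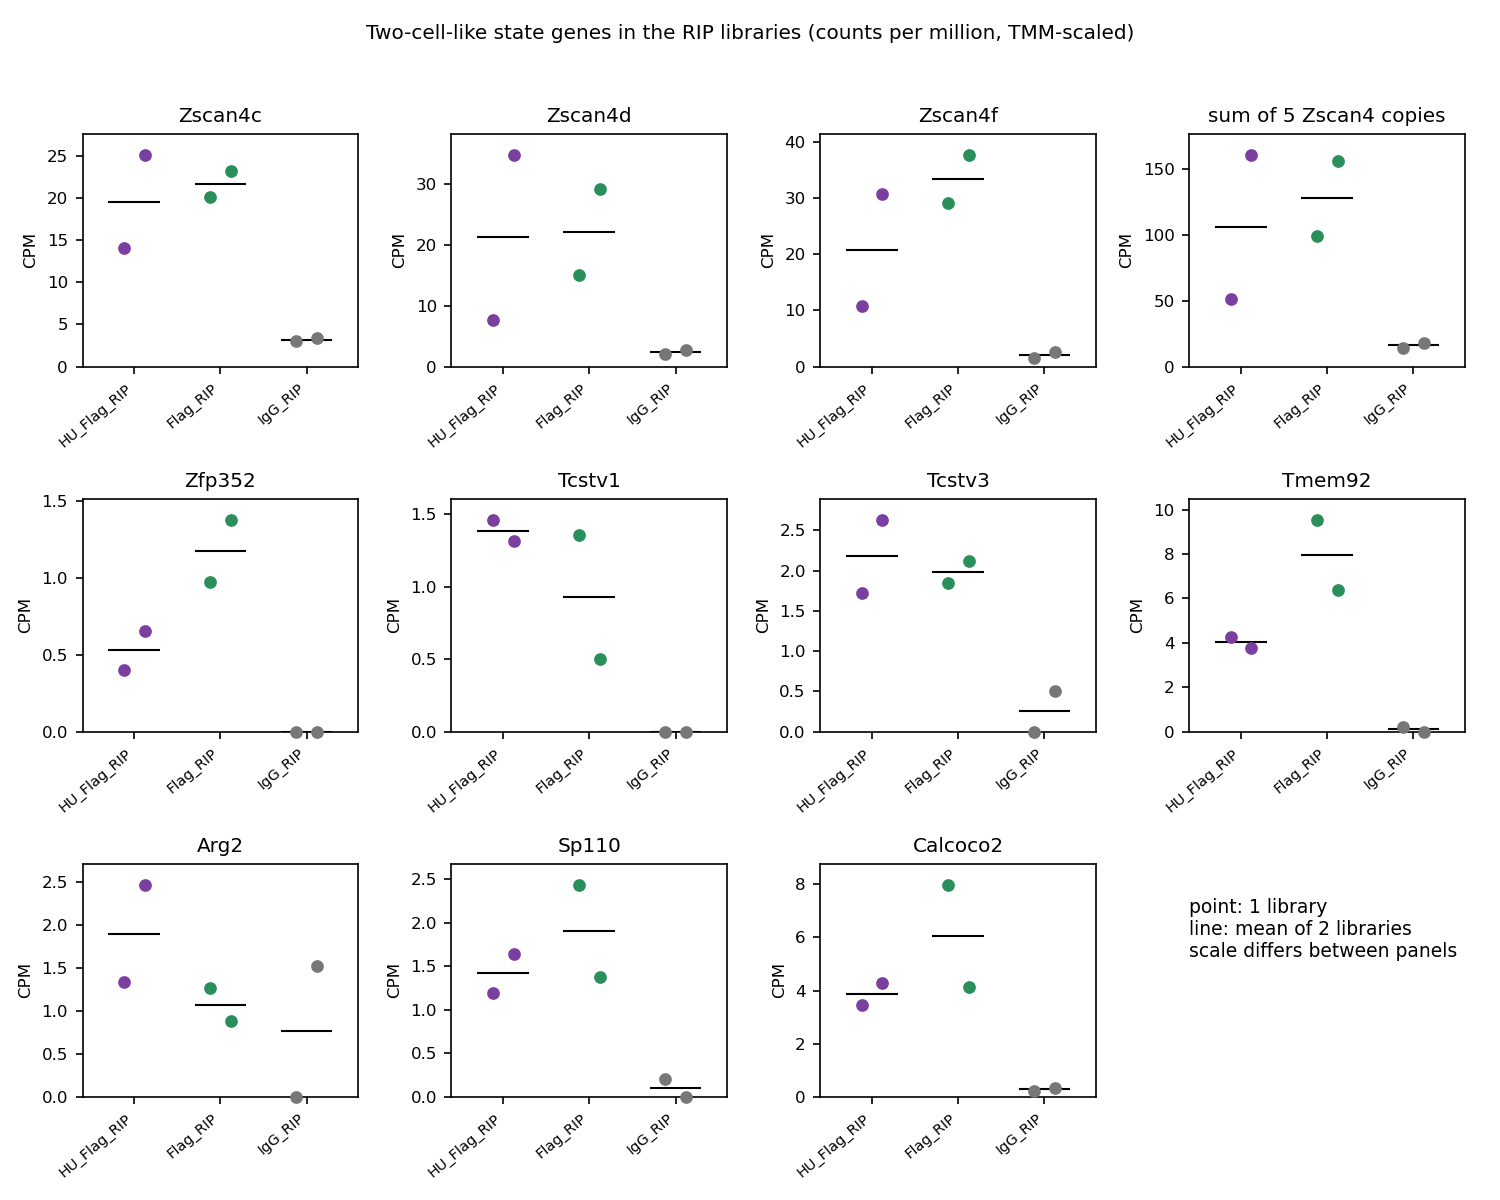
TMM-scaled CPM of the members and of the Zscan4 sum in each RIP library, 1 panel a gene with its own linear axis; points are libraries and lines are group means. For every gene but Arg2 the HU_Flag_RIP and Flag_RIP libraries lie above both IgG_RIP libraries. The share of all genes that separate in this way was not computed.

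In Flag_RIP against IgG_RIP, 8 members had enough counts for edgeR's quasi-likelihood test and 5 were called, all higher, where 2.32% of 10473 genes were called, 1.16% higher. They were Zscan4f (log2 fold change 3.99, SE 0.51, edgeR adjusted p = 0.000163), Zscan4c (2.76, SE 0.43, 0.00142), Zscan4d (3.22, SE 0.60, 0.00642), Tmem92 (6.19, SE 0.97, 0.00142) and Calcoco2 (4.39, SE 0.86, 0.00894). DESeq2 called the same number of members. The sum of the copies had a log2 fold change of 2.98 (SE 0.42, edgeR adjusted p = 0.000504), and the other copies, Zscan4a (2.39, 0.0217) and Zscan4b (2.63, 0.0112), were called too. Zscan4b lost its call with DESeq2 (adjusted p = 0.0812), Zscan4a lost it by library size alone (0.062) and without Flag_RIP replicate 2 (0.0548), and both lost it without IgG_RIP replicate 1 (0.274 for Zscan4a, 0.234 for Zscan4b) or replicate 2 (0.171 and 0.169). The median over the 8 members was 3.60, against 0.02 over all genes tested. Tmem92, Calcoco2, Sp110 and Tcstv3 had at most 3 counts in an IgG library and entered the test through the Flag libraries, which raises the median and the share called, so neither is used as support.

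Where IgG_RIP held 1 to 3 counts, the ratio of scaled counts is given with a 95% exact interval that covers counting error only. It was 89.1 for Tmem92 (15.7 to 3541), 22.9 for Calcoco2 (7.65 to 113), 21.5 for Sp110 (3.62 to 873) and 7.17 for Tcstv3 (2.27 to 36.4). Sp110 (edgeR adjusted p = 0.169) and Tcstv3 (0.272) were not called. Zfp352 was at least 4.18-fold and Tcstv1 at least 3.59-fold higher in Flag_RIP, taking 3 counts over the IgG_RIP group as the floor. Such bounds take the Flag counts as exact, and counting error on that side could lower them. By total counts these bounds were 2.23 and 1.91. For HU_Flag_RIP the bounds were 1.87 for Zfp352 and 5.08 for Tcstv1, and by total counts 0.984 and 2.67. By total counts Zfp352 in HU_Flag_RIP was thus not resolved from IgG_RIP. Arg2 had a log2 fold change of 0.45 (SE 1.26, edgeR adjusted p = 0.921).

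Single libraries carry part of this. Without IgG_RIP replicate 1 the calls of Zscan4c (adjusted p = 0.0805), Zscan4d (0.197), Calcoco2 (0.153) and the Zscan4 sum (0.0704) ended, without IgG_RIP replicate 2 those of Zscan4c (0.0599), Zscan4d (0.133) and Calcoco2 (0.102), and without Flag_RIP replicate 1 that of Calcoco2 (0.0839). Zscan4f and Tmem92 were called in each of these fits. Scaling by total counts alone moved the median of all genes to -0.87 and left the same number of members called.

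The same list of other genes from the 2-cell stage had 19 tested, of which 9 were higher and none lower in Flag_RIP, with a median log2 fold change of 3.23 (3.22 with the 3 genes that IgG_RIP lacked set at their lower bounds). Genes with few or no IgG_RIP counts entered through the Flag libraries and could hardly be lower, so the count and the median describe only the genes tested. Gm2016 had 143 and 100 counts in Flag_RIP, against 2 and 2 in IgG_RIP, Gm5662 had 270 and 216 against 12 and 22, and Gm8300 had 145 and 120 against 4 and 0. Several of these are multicopy genes, so reads may be split among copies. None of 10 activators, 36 repressors, 14 interferon-stimulated genes, 9 autophagy receptors and 6 arginine and polyamine enzymes tested was called by edgeR.

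Macrophage markers moved the opposite way in the RIP. Their summed level over 13 genes was 12.2 to 41.4 CPM in HU_Flag_RIP, 4.77 to 5.50 CPM in Flag_RIP and 53.3 to 129 CPM in IgG_RIP. Lyz2 had 73 and 199 counts in HU_Flag_RIP, 34 and 33 in Flag_RIP, and 498 and 237 in IgG_RIP, and 8 of the 13 markers were at 0 in both Flag_RIP libraries. Their part in the members' values was not tested.

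After HU the same 5 members were called. In HU_Flag_RIP against IgG_RIP, 2.86% of genes were called, 1.44% higher and 1.42% lower, and Zscan4f (log2 fold change 3.29, SE 0.51, edgeR adjusted p = 0.00127), Zscan4c (2.61, SE 0.43, 0.00228), Zscan4d (3.15, SE 0.61, 0.0064), Tmem92 (5.20, SE 1.00, 0.00658) and Calcoco2 (3.74, SE 0.88, 0.0246) were higher. The Zscan4 sum had a log2 fold change of 2.71 (SE 0.42, edgeR adjusted p = 0.00124). With IgG_RIP replicate 1 or replicate 2 left out, none of the 10 members was called by edgeR, although the log2 fold changes stayed above 0; for the sum the adjusted p was 0.091 without replicate 1 and 0.057 without replicate 2. Without HU_Flag_RIP replicate 2 the calls of Zscan4d (log2 fold change 1.70, adjusted p = 0.113) and Calcoco2 (0.0545) ended, and that of Calcoco2 also with only these 2 groups fitted (0.0643). Dppa5a RNA was lower in HU_Flag_RIP than in IgG_RIP (-1.08, SE 0.24, edgeR adjusted p = 0.0168). The comparison shares the IgG_RIP libraries with that of Flag_RIP.

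HU_Flag_RIP was also set against Flag_RIP directly. None of 8 members was called by edgeR or DESeq2, and none had an unadjusted p under 0.05, where 0.611% of genes were called, 0.143% higher and 0.468% lower. The Zscan4 sum had a log2 fold change of -0.27 with an interval of 2 SE from -1.04 to 0.49, which a 3.15-fold spread between the HU libraries keeps wide. Tmem92 (-0.98, interval of 2 SE -2.17 to 0.21), Zscan4f (-0.69, -1.52 to 0.14) and Calcoco2 (-0.65, -1.91 to 0.61) leaned lower in HU_Flag_RIP without passing the test. These intervals include 0 and also differences of more than 1 on the log2 scale.

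Likeness of pattern was measured over the 6 stem cell RNA-seq libraries, with Pearson's r of log2(FPKM + 1), among 6986 genes with a range of at least 1 on that scale. It is a description, since libraries of a group may share their cells and no p is given. Among the 5 genes nearest to the Zscan4 sum were Cd84 (r = 0.972), Cisd2 (0.970), Zfp882 (0.958) and Etv1 (0.952), all highest in the first mESC library. Nearest to Zfp352 were Zc3h6 (0.997), Tbx4 (0.997), Pak1 (0.995), Cpeb2 (0.995) and Frem2 (0.993), all highest in KD_control. Among the members Sp110 (0.958), Tmem92 (0.918), Arg2 (0.896) and Tcstv1 (0.779) followed Zfp352, while the same genes ran against the Zscan4 sum, with r of -0.534 for Sp110, -0.651 for Tmem92, -0.677 for Arg2 and -0.674 for Tcstv1. The members thus fell into Zscan4 copies on one side and Zfp352, Sp110, Tmem92, Arg2 and Tcstv1 on the other, with lower values for Tcstv3 (0.224 with the Zscan4 sum, 0.268 with Zfp352) and Calcoco2 (-0.288 and 0.451).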

How the data were processed

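RNA-seq and RIP libraries were analysed as deposited. The authors deposited gene-level FPKM with lower and upper confidence bounds for RNA-seq, per the file headers, and whole-number read counts per gene symbol for RIP. The submitters' processing notes give the build mm10 and name, with no roles, HTSeq 0.6.1, Cufflinks 2.1.1 with Cuffdiff 2.1.1, TopHat2 2.0.8 and CASAVA 2.19. No source used here says whether strand was kept, so reads of overlapping or antisense genes may be mixed. FPKM were summed over the loci of a symbol; 1 failed gene was left out, as were 27 count rows with dates for names (0.0206% to 0.0489% of counts).

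FPKM were tested with limma 3.58.1 (trend) on log2(FPKM + 1), after genes under a mean of 1 FPKM in both groups fitted were dropped. Counts were tested with edgeR 4.0.16 (quasi-likelihood, TMM, filterByExpr, all 6 RIP libraries in 1 fit) in R 4.3.3. The SE of an edgeR log2 fold change was taken as its absolute value divided by the square root of the F statistic. DESeq2 1.42.0 served as an alternative. The Benjamini-Hochberg adjustment ran over all genes tested, and genes were called under 0.05. Fragments behind an FPKM value were estimated from its deposited bounds and totalled 18330606 to 25335021 per library. Exact intervals cover counting error only, and floors only that of the IgG_RIP group, whereas intervals of 2 SE include the spread between libraries. Scripts were tested on simulated data. Same-numbered libraries deviated together in no consistent way (correlations of -0.54 to 0.345, with 2 pairs each), so the fits have no block. Other settings tried were further scalings, filters, a pseudocount of 0.1, other sets of libraries and each library left out.

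The members and lists were chosen with earlier results of these data known. Named were all members, the Zscan4 sum, Dppa5a, at most 4 called genes with the smallest p from each other list, and the 5 most like genes, of which 1 is not reported here.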

Additional observations from a re-analysis of the deposited data

Results flagged for a closer look

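The difference from MEF was not the same size in the 2 stem cell groups for 3 members. Tested directly between KD_control and mESC, it was larger in KD_control by 1.61 on the log2(FPKM + 1) scale for Tcstv1, by 1.35 for Arg2 and by 0.67 for Tmem92 (limma adjusted p = 0.00722, 0.00753 and 0.0174). All 3 genes reached the filter of 1 FPKM in KD_control alone, so the direction was set by the filter. The same MEF libraries served both differences and drop out of this test. The Y-linked gene Eif2s3y, listed at 0 in KD_control and at 43.2 and 41.2 FPKM in mESC, also separates these groups, and its part was not tested. No group holds enough libraries to test single libraries for standing apart.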

How the results depend on the processing

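With 2 libraries a group, a fit that leaves one out takes the spread from the other group. The depth behind Zfp352, Sp110 and the Tcstv genes is at most 56 fragments a library, and the ribosomal precursor leaves the RIP shallow. The replicate numbers were not shown to pair libraries.

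For Dppa5a_KD against KD_control, 3 members were called at a minimum of 5 FPKM (3023 of all genes) and 8 with a replicate block; of all genes 2916 were called at a common sum (1256 higher and 1660 lower, against 1678 and 2940) and 2992 with all 8 libraries fitted. The median of all genes was 0.02 at the common sum, against -0.11 as deposited. Leaving out 1 library gave 3 to 8 members and 2415 to 9436 genes.

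For KD_control against MEF, 1 member was tested and called at 5 FPKM. For mESC against MEF, leave-out fits gave 1 to 5 members and 2835 to 7056 genes; a replicate block left 5 members and 6408 genes, and the crossed block, added after seeing the data, 5 and 8950.

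For KD_control against mESC, members called numbered 5 without a filter, 0 at 5 FPKM, 6 with all 8 libraries and 6 with a replicate block (in both, Zscan4c, Zscan4d and Zscan4f lower; with the block their adjusted p was 0.00281, 0.00361 and 0.00214); leave-out fits gave 2 to 7, and 1865 to 10895 genes. Values near 0 changed sign there: Tcstv3 was -0.065 with median-ratio scaling, -0.11 at a common sum and -0.21 to 0.23 in leave-out fits, Calcoco2 was -0.37 to 0.25 and Zscan4b -1.85 to 0.22.

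For Flag_RIP against IgG_RIP, all genes called numbered 2278 by library size alone (64 higher and 2214 lower, against 121 and 122), 433 without a filter and 508 with a replicate block; leave-out fits gave 30 to 248 genes and 2 to 5 members. Arg2 was -0.49 by library size and -0.47 to 6.02 in leave-out fits. For HU_Flag_RIP against IgG_RIP the counts were 2709 (92 higher and 2617 lower, against 151 and 149), 532 and 617, with 23 to 252 genes and 0 to 5 members. For HU_Flag_RIP against Flag_RIP, 41 genes were called with only these groups fitted. Zscan4a was -0.0031 by library size, -0.016 without a filter and -0.11 with the block. Leave-out fits gave -0.63 to 0.20 for Zscan4c, -1.52 to 0.65 for Zscan4d, -0.20 to 0.39 for Tcstv3, -1.33 to 0.32 for the Zscan4 sum, -1.25 to 0.22 for the sum of Zscan4c, Zscan4d and Zscan4f, -0.96 to 0.59 for Zscan4a and -1.69 to 0.41 for Zscan4b. The cause was not tested except where fewer libraries or genes entered a fit. A replicate block changed no other count of members.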
